A study of Homo sapiens with 6 samples.

Results

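TRIM proteins were examined in LNCaP, an androgen-responsive line of human prostate cancer cells. Of the 35430 genes in the deposited table, 67 carried a TRIM name, with names that end in the pseudogene suffix P left out. The comparison set 3 libraries of cells kept for 1 week in 0.5 µM palbociclib, an inhibitor of the cyclin-dependent kinases CDK4 and CDK6, against 3 control libraries of the same line, for which no vehicle or culture time is recorded in the labels. Time in culture and the drug therefore cannot be told apart, nor can fewer cells of a type and less RNA per cell. Polyadenylated RNA was sequenced, and nothing in the labels says that the libraries of a group came from separate cultures, so that each p below measures the spread between libraries. Members were taken by name, but the family was chosen by the palbociclib and control values of TRIM49D1 and TRIM49D2, a pair of copies with large fold changes in this same comparison. Values of the TRIM49 copies are therefore given as a description, with no p-value, and the SE beside them is descriptive as well.

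TRIM (tripartite motif) proteins carry a RING finger, B-box zinc fingers and a coiled coil in a row, and most are E3 ubiquitin ligases, which pass ubiquitin to chosen proteins. The domain at the C-terminal end sets the target: a SPRY domain in the largest class, and in others a PHD finger with a bromodomain that reads chromatin, NHL repeats, or a COS box that binds microtubules. Family members restrict viruses, tune interferon signalling, repress transposons and act on p53. TRIM49 and its relatives are SPRY genes that spread by recent duplication on chromosome 11, are known mainly from testis, and include genes that DUX4, a transcription factor of the early embryo, can switch on.

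The table held 5 TRIM49 copies, TRIM49D1, TRIM49D2, TRIM49, TRIM49C and TRIM49B, and 2 relatives, TRIM48 and TRIM51, all on chromosome 11. TRIM49D1 (ENSG00000223417, 89911111 to 89921767 on hg38, minus strand) and TRIM49D2 (ENSG00000233802, 89924064 to 89933063, plus strand) lie head to head with 2296 bases between their listed bounds. TRIM49 (ENSG00000168930, 89797655 to 89808575) and TRIM49C (ENSG00000204449, 90031106 to 90042025) flank them, and TRIM49B (ENSG00000182053, 49027501 to 49038451) is on the other side of the centromere. The first coding bases show how near these copies are to each other. Each line gives 90 bases from the ATG, read from GENCODE 44 coding exons on hg38, and for TRIM48 from coding base 49, where the matching ATG lies. Capitals mark the bases that differ from TRIM49D1.
TRIM49D1: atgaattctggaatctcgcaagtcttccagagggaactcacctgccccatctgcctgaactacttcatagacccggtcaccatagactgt
TRIM49D2: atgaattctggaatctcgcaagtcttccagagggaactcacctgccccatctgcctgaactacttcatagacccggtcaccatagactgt
TRIM49: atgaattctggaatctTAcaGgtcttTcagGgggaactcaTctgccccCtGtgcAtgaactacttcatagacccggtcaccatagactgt
TRIM49C: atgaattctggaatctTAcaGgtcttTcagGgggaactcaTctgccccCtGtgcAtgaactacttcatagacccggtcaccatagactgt
TRIM49B: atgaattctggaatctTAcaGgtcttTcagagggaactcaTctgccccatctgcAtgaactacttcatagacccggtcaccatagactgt
TRIM48: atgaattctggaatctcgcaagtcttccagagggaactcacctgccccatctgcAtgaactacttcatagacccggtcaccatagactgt

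The coding sequences of TRIM49D1 and TRIM49D2 were the same over all 1356 bases, and their genes differed at 2 of 9000 aligned bases. TRIM49D1 differed from TRIM49C at 110 of 1356 coding bases, from TRIM49 at 111 and from TRIM49B at 109. TRIM49 and TRIM49C formed a second near-identical pair with 5 differences. TRIM48, whose annotated coding sequence is shorter, differed from TRIM49D1 at 12 of 624 aligned bases. For reads this means that every stretch of 100 bases in TRIM49D2 transcripts is also in TRIM49D1 (100% of 1552), whereas 62.6% of the 2480 stretches of TRIM49D1 are shared with TRIM49D2. Between TRIM49D1 and TRIM49C only 17 of 2480 stretches were shared, so that reads of the D pair and reads of the other copies can mostly be told apart. The division of reads between TRIM49D1 and TRIM49D2 is uncertain. Their sum does not depend on it if each read was counted once over the pair, which the sources used here do not say.

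The sum of TRIM49D1 and TRIM49D2 was 105.6, 108.1 and 107.6 CPM (counts scaled to a fixed library total with trimmed-mean-of-M-values factors, TMM) in palbociclib libraries 1, 2 and 3, against 11.7, 11.3 and 11.9 CPM in control libraries 1, 2 and 3. The groups were far apart and the libraries within each group nearly level. The means were 107.1 ± 1.34 CPM with palbociclib and 11.6 ± 0.271 CPM in controls (SD, n = 3 each), a 9.19-fold difference (log2 fold change 3.20 ± 0.0463, SE). Summing all 5 copies gave 108.4 ± 1.28 CPM with palbociclib and 12.3 ± 0.374 CPM in controls, a log2 fold change of 3.14.

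The separate copies varied more than their sum. TRIM49D1 had 71.0, 66.5 and 75.2 CPM in palbociclib libraries, against 7.79, 7.24 and 8.88 CPM in control libraries (log2 fold change 3.15 ± 0.0873, SE). TRIM49D2 had 34.6, 41.6 and 32.4 CPM in palbociclib libraries, against 3.92, 4.11 and 3.00 CPM in control libraries (log2 fold change 3.30 ± 0.148). In each group the library with the least TRIM49D1 had the most TRIM49D2. The share of the pair's summed counts that was assigned to TRIM49D1 was 67.2%, 61.5% and 69.9% in palbociclib libraries and 66.5%, 63.8% and 74.8% in control libraries, and the 2 groups overlapped in it.

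**Figure D1:**
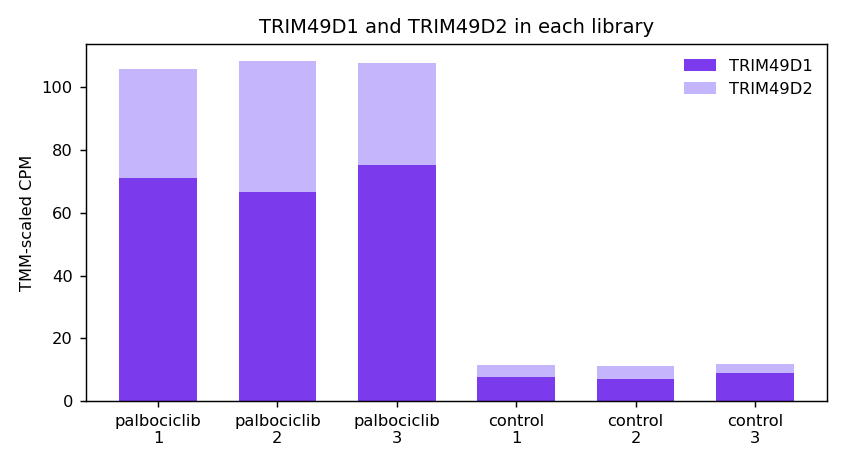
Bars give TMM-scaled CPM of TRIM49D1 (dark) with TRIM49D2 stacked on it (light) in each library. The 3 palbociclib bars reach 105.6 to 108.1 CPM and the 3 control bars 11.3 to 11.9 CPM, while the dark part varies between libraries of a group.

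Per length, TRIM49D1 averaged 25.5 ± 1.59 FPKM (a fragment rate scaled by transcript length and library depth) with palbociclib and 3.09 ± 0.311 FPKM in controls. TRIM49D2 averaged 20.3 ± 2.68 FPKM with palbociclib and 2.22 ± 0.373 FPKM in controls. Among the 67 family members, this placed TRIM49D1 and TRIM49D2 at ranks 2 and 3 by mean FPKM with palbociclib and at ranks 33 and 35 in controls. TRIM28 ranked first in both groups.

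The other copies stayed low. TRIM49 had 0.792, 0.772 and 0.809 CPM in palbociclib libraries, against 0.481, 0.252 and 0.606 CPM in control libraries. The groups did not overlap, and the log2 fold change was 0.82 ± 0.394 (SE). TRIM49C had 38, 21 and 23 counts in palbociclib libraries, against 0, 8 and 10 counts in control libraries (log2 fold change 2.11 ± 0.933). About 4 deposited counts correspond to a single fragment, so the TRIM49C control libraries were all under the floor of 12 counts (3 fragments), and its fold change rests on few fragments. TRIM49 and TRIM49C also share 1478 of their 2064 stretches of 100 bases. The division of reads between TRIM49 and TRIM49C is therefore uncertain, and with it the separate fold change of each. TRIM49B had 11 counts or fewer in each library, TRIM48 16 or fewer and TRIM51 6 or fewer, and none of them passed the filter on low counts. Together TRIM49D1 and TRIM49D2 held 98.8% to 98.9% of the counts of the 5 copies with palbociclib and 93.8% to 96.1% in controls.

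**Figure D2:**
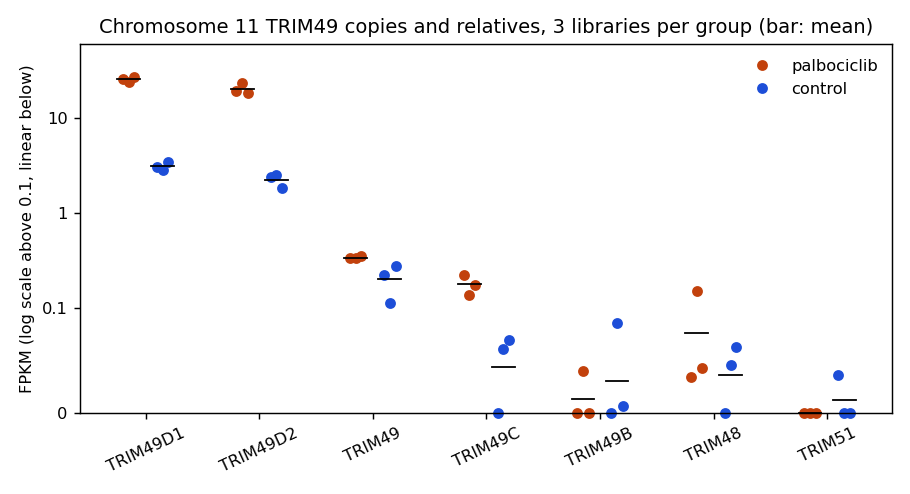
Points are FPKM in single libraries for the TRIM49 copies, TRIM48 and TRIM51, with palbociclib left of control for each gene and a bar at the mean. TRIM49D1 and TRIM49D2 lie between 18.2 and 27.1 FPKM with palbociclib and between 1.80 and 3.43 FPKM in controls, and the other genes lie at or below 0.348 FPKM in every library, with the highest for TRIM49.

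From TRIM49 to TRIM49C and 100000 bases beyond each, the table listed 10 genes, and 6 of them passed the filter. Besides the 4 copies these were the pseudogenes TRIM53AP and TRIM53BP, which are not members and were named after their values were seen. TRIM53AP had 77, 47 and 33 counts in palbociclib libraries, against 14, 0 and 5 counts in control libraries. TRIM53BP had 52, 29 and 18 counts in palbociclib libraries, against 12, 4 and 5 counts in control libraries. For both the groups did not overlap, as in 51.1% of all genes tested, at levels far under those of the D pair. Control counts were 14 or fewer, near or under the floor of 12 counts (3 fragments). The filter kept both pseudogenes through their palbociclib libraries, so their values are a description only. Each shared 70 stretches of 100 bases with TRIM49D1, or 4.84% of its own for TRIM53AP and 4.32% for TRIM53BP. Each also shared 85 with TRIM49 and 85 with TRIM49C. How many of their reads came from the D pair or other copies was not tested. The pseudogenes shared 892 stretches with each other (61.7% of TRIM53AP and 55.0% of TRIM53BP), so the division of reads between them is uncertain. The 4 other listed genes had 5 counts or fewer in every library.

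The copies also share sequence around their start. RefSeq promoters (GRCh38.p14) were matched by symbol for 52 of the 67 members. The longest run of bases present in the promoters of TRIM49D1, TRIM49D2, TRIM49B, TRIM48 and TRIM51 was TGCATAAACCTAATCATCT, so its presence in these 5 follows from how it was found. Searched on both strands, it stood in 6 of 35116 RefSeq promoter windows (0.0171%), and the sixth was that of TRIM51G, which was not analysed here. The windows of 120 bases below, read from hg38 on the strand of each gene, are shown because the run lies in copies with high and with low levels. Capitals mark the run.
TRIM49D1, chr11:89920461-89920580, minus strand: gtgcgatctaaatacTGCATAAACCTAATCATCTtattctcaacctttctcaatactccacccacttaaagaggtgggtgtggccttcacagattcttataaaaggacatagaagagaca
TRIM49D2, chr11:89923892-89924011, plus strand: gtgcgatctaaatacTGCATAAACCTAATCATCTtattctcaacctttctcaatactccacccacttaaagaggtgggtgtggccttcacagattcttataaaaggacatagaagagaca
TRIM49, chr11:89807259-89807378, minus strand: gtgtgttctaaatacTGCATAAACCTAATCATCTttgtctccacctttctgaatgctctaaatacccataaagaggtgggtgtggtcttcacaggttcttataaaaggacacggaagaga
TRIM49C, chr11:90032303-90032422, plus strand: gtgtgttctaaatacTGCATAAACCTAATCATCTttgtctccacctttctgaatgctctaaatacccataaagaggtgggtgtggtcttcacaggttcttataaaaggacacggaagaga
TRIM48, chr11:55262031-55262150, plus strand: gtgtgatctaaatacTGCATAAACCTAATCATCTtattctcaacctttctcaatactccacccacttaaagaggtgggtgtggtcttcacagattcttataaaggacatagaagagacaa

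The windows of TRIM49D1 and TRIM49D2 were the same, that of TRIM48 differed from them at 2 of 119 aligned bases, and those of TRIM49 and TRIM49C at 12 of 116. The run began 157 bases before the listed start of TRIM49D2 and 109 before that of TRIM48. In TRIM49D1 it lay 1202 bases after the listed start, and in TRIM49 and TRIM49C 1212 bases after it. In TRIM49B it lay 1210 bases after the listed start. The run also lay 7887 bases after the listed start of TRIM53AP and 10661 after that of TRIM53BP, past the listed end of each pseudogene. TRIM48, whose window held the same run, had a level of 0.247 CPM or less in every library. These matches describe the sequence only, and no binding was measured.

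Outside the TRIM49 copies, 62 members remained, and 49 of them passed the filter on low counts. Of these 49, 10 rose and 15 fell (edgeR quasi-likelihood test, Benjamini-Hochberg adjusted over the 21218 genes that passed the filter, threshold 0.05). The called share was 51.0%, beside 38.6% of all genes tested (20.1% higher and 18.5% lower). The median log2 fold change of the 49 was -0.02, beside -0.03 over all genes tested, and the median size of change, whatever its sign, was 0.32, beside 0.35. With library size alone, which moved the median of all genes by 0.11 downward to -0.14, 6 of these members were higher and 18 lower, against 10 and 15 with TMM. The groups did not overlap in 29 of the 49, beside 51.1% of all genes tested. Among members that passed, folds ran from 1.15 for TRIM33 to 1.97 for TRIM7, well under those of the D pair.

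**Figure D3:**
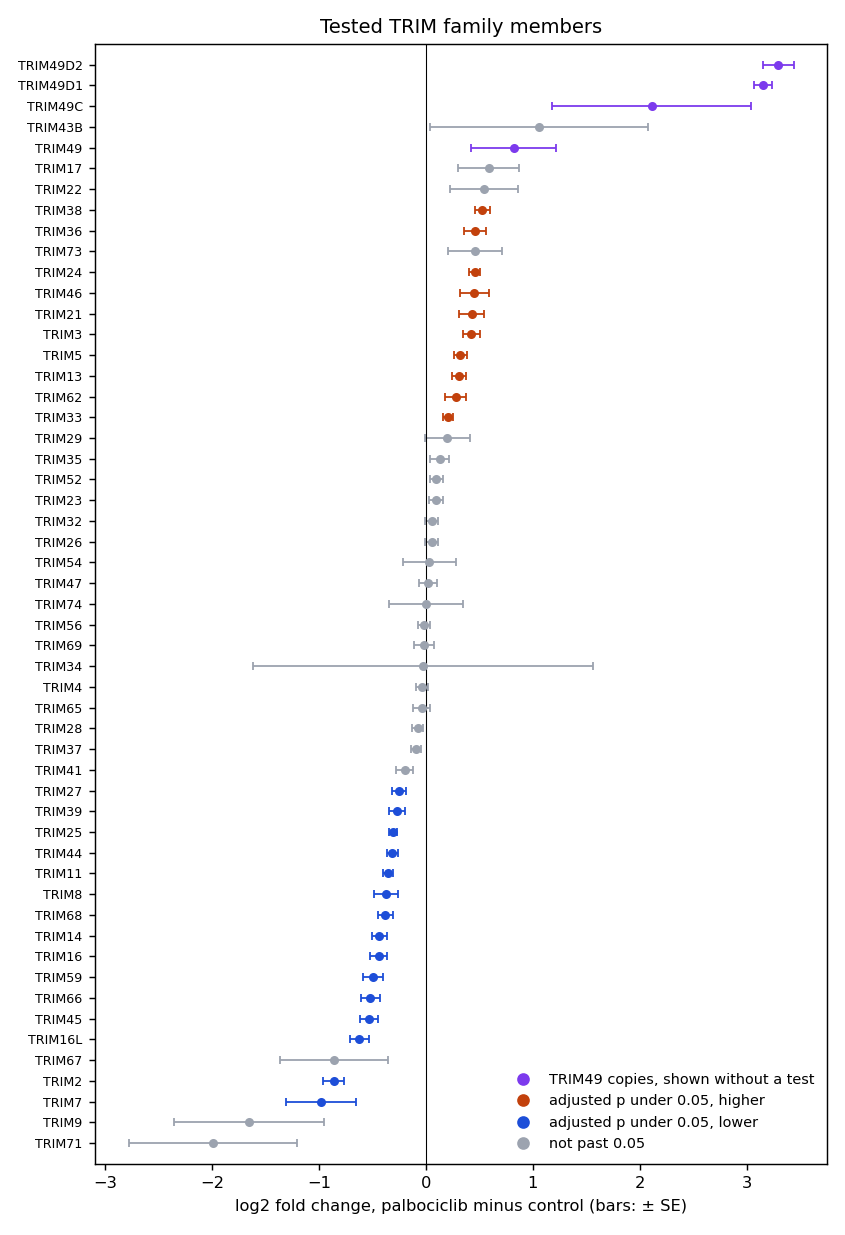
Points are log2 fold changes, palbociclib minus control, of the 53 tested members with SE bars, in order of size. TRIM49D2 and TRIM49D1 lie above 3, and the members that passed lie between -0.98 and 0.53.

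TRIM24 and TRIM36 rose, and TRIM68 fell. TRIM24 (chromosome 7, 138460259 to 138589996), a PHD and bromodomain protein that ubiquitinates p53, had 70.9, 76.0 and 74.6 CPM in palbociclib libraries, against 56.8, 51.5 and 53.0 CPM in control libraries. All palbociclib values lay above all control values, and TRIM24 rose by 0.46 ± 0.0523 on the log2 scale (SE; edgeR adjusted p = 0.000173). TRIM36 (chromosome 5, 115124762 to 115180546), a microtubule-binding ligase, had 28.6, 25.3 and 27.8 CPM in palbociclib libraries, against 18.6, 17.9 and 22.8 CPM in control libraries. It rose as well (log2 fold change 0.46 ± 0.104, edgeR adjusted p = 0.00733). TRIM68 (chromosome 11, 4598672 to 4608231), a SPRY ligase, had 29.0, 32.7 and 34.1 CPM in palbociclib libraries, against 42.2, 40.8 and 41.6 CPM in control libraries. It fell by 0.38 ± 0.0680 on the log2 scale (edgeR adjusted p = 0.00225), and its groups did not overlap.

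Of the other PHD and bromodomain proteins, TRIM33 rose, TRIM66 fell and TRIM28 did not pass. TRIM33, which binds SMAD proteins of the TGF-beta pathway, averaged 82.9 ± 3.23 CPM with palbociclib and 71.9 ± 2.77 CPM in controls (log2 fold change 0.21 ± 0.0483, edgeR adjusted p = 0.00917). TRIM33 no longer passed when scaled by library size (adjusted p = 0.152) or on the log2(FPKM + 1) and log2(FPKM + 0.1) scales (0.193 and 0.190), over a range of 0.00106 to 0.193 among alternatives. TRIM66 had 27.1, 29.0 and 34.5 CPM in palbociclib libraries, against 41.5, 44.5 and 43.7 CPM in control libraries (log2 fold change -0.52 ± 0.0886, edgeR adjusted p = 0.00172). TRIM28, the corepressor that KRAB zinc finger proteins bring to transposons, was the most abundant member, at 88.2 ± 1.25 FPKM with palbociclib and 100.2 ± 7.50 FPKM in controls. It had 412.4, 403.6 and 413.8 CPM in palbociclib libraries, against 450.7, 448.2 and 396.1 CPM in control libraries. The groups overlapped through control library 3, and the log2 fold change was -0.07 ± 0.0519 (edgeR adjusted p = 0.301). Without control library 3 it was -0.13 (adjusted p = 0.0140), with library size alone -0.19 (0.0217), and on both FPKM scales -0.18 (0.0437 and 0.0423), over a range of 0.0140 to 0.636. Of 10 partners of TRIM28 in silencing, 4 rose and 4 fell (80% called, beside 38.6% of all genes tested), with a median log2 fold change of 0.00.

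Among 12 antiviral and innate immune members 11 were tested, of which 3 rose, 2 fell and 6 did not pass, with a median log2 fold change of -0.01. The called share, 45.5%, was near the 38.6% of all genes tested. TRIM38 (chromosome 6, 25962802 to 25991231), which damps Toll-like receptor signalling, had 29.3, 26.0 and 29.0 CPM in palbociclib libraries, against 19.2, 19.3 and 19.96 CPM in control libraries. It had the largest log2 fold change among members that rose outside the copies (log2 fold change 0.53 ± 0.0735, edgeR adjusted p = 0.000535). TRIM5, which blocks retroviral capsids, averaged 38.8 ± 0.526 CPM with palbociclib and 31.0 ± 1.67 CPM in controls (log2 fold change 0.32 ± 0.0587, edgeR adjusted p = 0.00246). TRIM21, a receptor for antibody inside the cell, averaged 13.7 ± 1.44 CPM with palbociclib and 10.2 ± 0.821 CPM in controls (0.43 ± 0.117, edgeR adjusted p = 0.0178). It did not pass when scaled by library size (adjusted p = 0.0581) or without palbociclib library 1 (0.0651), palbociclib library 3 (0.0544) or control library 3 (0.0505), over a range of 0.00277 to 0.0651.

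TRIM25 (chromosome 17, 56836387 to 56914080), which activates the viral RNA sensor RIG-I, had 142.1, 138.3 and 136.1 CPM in palbociclib libraries, against 169.5, 175.0 and 170.6 CPM in control libraries. It fell by 0.31 ± 0.0368 on the log2 scale (edgeR adjusted p = 0.000231). TRIM14, an adaptor in the same signalling at mitochondria, averaged 40.3 ± 2.54 CPM with palbociclib and 54.5 ± 3.48 CPM in controls (-0.43 ± 0.0662, edgeR adjusted p = 0.000917). TRIM14 shares 422 of 5481 exon bases with NANS, and TRIM25 132 of 12417 with C17orf67. Beside these members, 17 interferon-induced genes of other families were tested: 9 rose and 2 fell (64.7% called, beside 38.6% of all genes tested), with a median log2 fold change of 0.70. IFIT1 rose by 1.85, ISG15 by 1.04 and MX1 by 0.70 on the log2 scale. The 2 that fell were OAS3 (-0.87) and IRF7 (-0.54).

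Of the 5 NHL and filamin members 1 rose and 2 fell (60% called, beside 38.6% of all genes tested). Their median log2 fold change, -0.53, is the value of TRIM45. TRIM32, a ligase known from muscle, did not pass (0.05, edgeR adjusted p = 0.531). TRIM2 (chromosome 4, 153152163 to 153339317), a ligase known from neurons, had 8.80, 8.45 and 7.62 CPM in palbociclib libraries, against 14.8, 15.1 and 15.4 CPM in control libraries. The groups were clearly separate, and TRIM2 fell by 0.86 ± 0.0992 on the log2 scale (edgeR adjusted p = 0.000175). GENCODE 44 lists another gene over part of its transcripts, which holds 20.8% of the TRIM2 stretches of 100 bases. TRIM3, a relative of TRIM2, moved the other way: it had 25.7, 26.8 and 26.6 CPM in palbociclib libraries, against 20.1, 18.0 and 20.9 CPM in control libraries (0.42 ± 0.0783, edgeR adjusted p = 0.00263). TRIM45, which has a filamin repeat, averaged 16.5 ± 0.799 CPM with palbociclib and 23.8 ± 1.33 CPM in controls (-0.53 ± 0.0805, edgeR adjusted p = 0.000876). TRIM71, a stem cell protein that binds RNA, had 33, 12 and 8 counts in palbociclib libraries, against 74, 122 and 12 counts in control libraries. Control library 3 lay within the palbociclib range, and TRIM71 did not pass (-1.99 ± 0.790, edgeR adjusted p = 0.0779). It passed without control library 3 (adjusted p = 0.0118) and by DESeq2 (0.0237), over a range of 0.0118 to 0.348. Its log2 fold change was -1.08 without control library 2 and -2.66 without palbociclib library 1.

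Of the 4 microtubule-binding members with a COS box and fibronectin repeat, TRIM36 and TRIM46 rose (50% called, beside 38.6% of all genes tested). TRIM46, which organises microtubules at the start of the axon, averaged 7.96 ± 1.03 CPM with palbociclib and 5.82 ± 0.277 CPM in controls (0.45 ± 0.134, edgeR adjusted p = 0.0261). Its call was lost under 7 of 14 alternatives, with adjusted p from 0.0109 to 0.0960: library size alone, both FPKM scales, and without palbociclib library 2 (0.0532) or 3 (0.0960) or control library 1 (0.0891) or 2 (0.0526). The neuronal TRIM9 and TRIM67 were near the floor and did not pass. TRIM9 had 8, 20 and 4 counts in palbociclib libraries, against 39, 50 and 15 counts in control libraries, and TRIM67 had 12, 12 and 10 counts in palbociclib libraries, against 27, 20 and 18 counts in control libraries. The log2 fold change was -1.66 for TRIM9 (edgeR adjusted p = 0.0951) and -0.86 for TRIM67 (0.219). That of TRIM9 was -2.49 without palbociclib library 2, where it passed (adjusted p = 0.0442, range 0.0442 to 0.343), and -1.14 without control library 2. Without palbociclib library 2 the palbociclib counts left were 8 and 4, under the floor of 12 counts. The filter kept TRIM9 through its control libraries, so its values are a description only. Of the 3 muscle members of the COS class only TRIM54 was tested (0.03, edgeR adjusted p = 0.937).

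**Figure D4:**
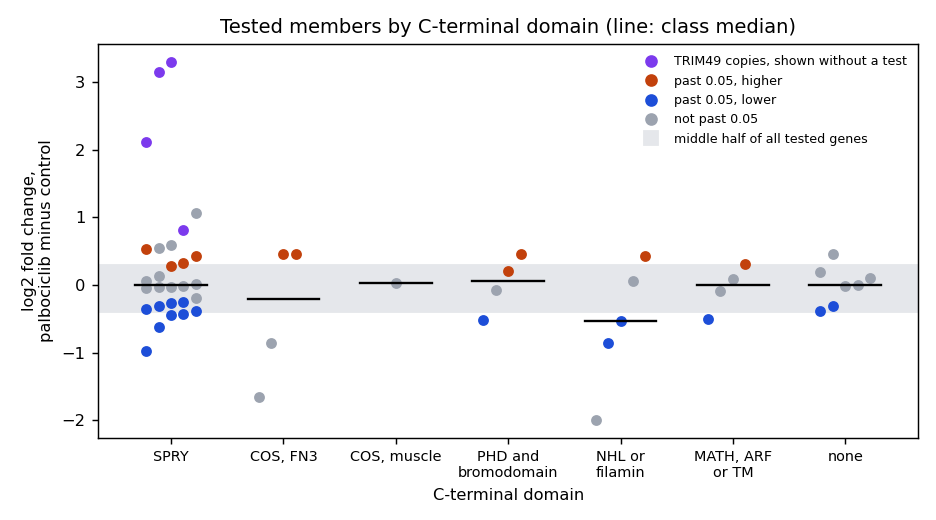
Each point is the log2 fold change, palbociclib minus control, of a tested member, placed by its C-terminal domain, with a line at the class median and a grey band for the interquartile range of all tested genes. The SPRY class holds the TRIM49 copies at its top and has a median of 0.00, and the NHL or filamin class has a median of -0.53.

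The SPRY class without the TRIM49 copies had 24 tested members, of which 4 rose and 9 fell (54.2% called, beside 38.6% of all genes tested, of which 20.1% were higher and 18.5% lower). TRIM16L and TRIM16 both fell. TRIM16L, which GENCODE 44 lists as a transcribed pseudogene under the identifier of the table, had 16.7, 20.4 and 19.1 CPM in palbociclib libraries, against 28.5, 29.0 and 29.0 CPM in control libraries (-0.62 ± 0.0853, edgeR adjusted p = 0.000495). TRIM16, which helps clear damaged lysosomes, averaged 37.3 ± 2.54 CPM with palbociclib and 50.6 ± 4.46 CPM in controls (-0.44 ± 0.0778, edgeR adjusted p = 0.00200). All stretches of 100 bases of this GENCODE 44 entry of TRIM16L and 28.6% of those of TRIM16 also lie in a further entry. For TRIM16L the further entry has the same name. The deposited counts and FPKM imply a length of 4.51 kb for TRIM16L, against 1176 exon bases in GENCODE 44 under that identifier. The level of each is uncertain, and whether reads were divided between entries was not tested. TRIM11, a ligase for misfolded proteins, had 72.1, 70.2 and 67.9 CPM in palbociclib libraries, against 90.3, 91.7 and 86.6 CPM in control libraries (-0.35 ± 0.0437, edgeR adjusted p = 0.000268).

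Smaller falls in the class were those of TRIM27 and TRIM39. TRIM27, known as RET finger protein, averaged 115.1 ± 10.8 CPM with palbociclib and 137.0 ± 6.03 CPM in controls (-0.25 ± 0.0686, edgeR adjusted p = 0.0186). Without control library 1 or 2 the call was lost (adjusted p = 0.0635 and 0.0662, range 0.00157 to 0.0662). TRIM39, which restrains the anaphase-promoting complex, averaged 23.1 ± 0.676 CPM with palbociclib and 27.8 ± 1.95 CPM in controls (-0.27 ± 0.0736, edgeR adjusted p = 0.0184). HCG18 overlaps 641 of its 4226 exon bases, and 24.7% of its stretches of 100 bases are shared with other genes, most often TRIM39-RPP21. Without palbociclib library 2 or control library 1 that call was lost (adjusted p = 0.0685 and 0.0784, range 0.00318 to 0.0784). TRIM7 and TRIM62, which also passed, were named after their values were seen. TRIM7, which binds the glycogen primer glycogenin, averaged 0.857 ± 0.328 CPM with palbociclib and 1.69 ± 0.277 CPM in controls (-0.98 ± 0.327, edgeR adjusted p = 0.0424), and lost its call under 6 of 14 alternatives, among them each leave-out except that of palbociclib library 2 (adjusted p 0.0707 to 0.116). TRIM62, a ligase of epithelial polarity, averaged 17.9 ± 1.19 CPM with palbociclib and 14.8 ± 1.06 CPM in controls (0.28 ± 0.0939, edgeR adjusted p = 0.0452). It lost its call under 10 of 14 alternatives, including the replicate block (0.0813) and each leave-out except that of control library 1 (0.0607 to 0.129), with adjusted p from 0.0223 to 0.197 over all alternatives.

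Among the 4 members with a MATH, ARF or transmembrane domain 1 rose and 1 fell (50% called, beside 38.6% of all genes tested). TRIM13, a ligase of the endoplasmic reticulum, averaged 34.1 ± 1.42 CPM with palbociclib and 27.5 ± 1.60 CPM in controls (0.31 ± 0.0666, edgeR adjusted p = 0.00583). TRIM13 did not pass on the log2(FPKM + 1) scale (adjusted p = 0.0785) or the log2(FPKM + 0.1) scale (0.0701), over a range of 0.000360 to 0.0785, and 1086 of its 8096 exon bases overlap KCNRG. TRIM59 had 26.2, 28.2 and 28.2 CPM in palbociclib libraries, against 39.8, 33.3 and 43.4 CPM in control libraries (-0.50 ± 0.0945, edgeR adjusted p = 0.00306), and shares 1553 of 7822 exon bases with SMC4. TRIM37, which limits centrosome assembly, averaged 70.5 ± 1.60 CPM with palbociclib and 75.1 ± 2.76 CPM in controls and did not pass (-0.09 ± 0.0447, edgeR adjusted p = 0.146). With library size alone it did (-0.20, adjusted p = 0.00606), and on both FPKM scales (0.00995 and 0.00990), over a range of 0.00606 to 0.391. TRIM23, which carries a GTPase domain, did not pass (0.10, edgeR adjusted p = 0.299; with library size alone -0.02).

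Of the members with no C-terminal domain, 2 of 7 tested passed, and both fell (28.6%, beside 38.6% of all genes tested). TRIM44, which stabilises other ligases of the family, had 128.7, 121.8 and 123.4 CPM in palbociclib libraries, against 146.4, 152.8 and 166.2 CPM in control libraries (-0.32 ± 0.0526, edgeR adjusted p = 0.00152). TRIM8, which acts on SOCS1 and p53, had 47.5, 41.6 and 33.5 CPM in palbociclib libraries, against 56.6, 52.5 and 50.2 CPM in control libraries (-0.38 ± 0.113, edgeR adjusted p = 0.0269). Its call was lost without palbociclib library 2 (adjusted p = 0.0710), control library 1 (0.104) or control library 2 (0.0639), over a range of 0.00222 to 0.104, and 1349 of its 6987 exon bases overlap TRIM8-DT. TRIM73 did not pass (0.46, edgeR adjusted p = 0.191), and neither did TRIM52 (0.10, 0.209; with library size alone -0.01).

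**Figure D5:**
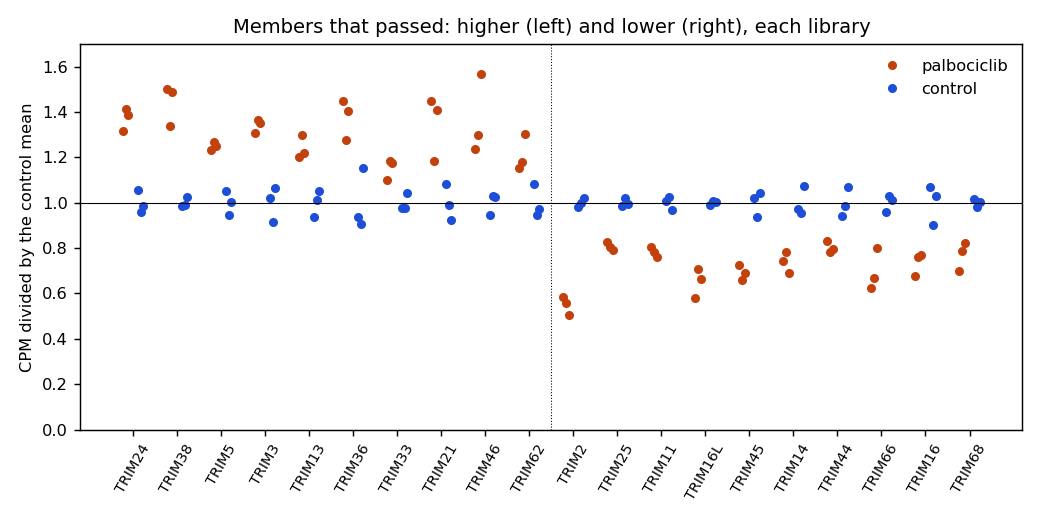
Points are CPM in single libraries divided by the control mean, for the 10 members that rose (left) and 10 of the members that fell (right), with palbociclib left of control for each gene. Palbociclib points lie above 1 for the members on the left and below 1 for those on the right, where TRIM2 lies lowest.

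Among the p53-linked members 1 rose and 2 fell of 6 tested, and among those linked to the centrosome and cell division 1 rose and 1 fell of 4 (50% called in both, beside 38.6% of all genes tested). TRIM69, a spindle protein in the second list, averaged 17.7 ± 0.420 CPM with palbociclib and 17.9 ± 1.92 CPM in controls (-0.02, edgeR adjusted p = 0.897), and TRIM26 was at 93.8 ± 8.06 CPM with palbociclib and 90.3 ± 1.68 CPM in controls (0.05, edgeR adjusted p = 0.534; with library size alone -0.06). The 14 members under the filter had at most 17 counts in any library. Besides TRIM49B, TRIM48 and TRIM51 they were TRIM6, TRIM10, TRIM15, TRIM31, TRIM43, TRIM50, TRIM55, TRIM58, TRIM61, TRIM63 and TRIM72, and they were not tested. TRIM15 had 0 counts in every palbociclib library, against 14, 16 and 0 counts in control libraries, and passed the filter and the test only without control library 3. There the filter kept TRIM15 through control libraries alone, so that call is a description only. TRIM61 had 0 counts in every palbociclib library, against 9, 9 and 4 counts in control libraries, all under the floor of 12 counts.

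Gene lists around the family were counted in the same fit. Of 7 tested RBCC and SPRY proteins under other names, 3 fell and 4 did not pass, a called share of 42.9%, near the 38.6% of all genes tested. Those that fell were BSPRY (-0.80), MID2, a microtubule-binding relative of TRIM36 (-0.41), and RNF135, another activator of RIG-I (-0.35). Of 13 E2 enzymes, which hand ubiquitin to RING ligases, 3 rose and 4 fell (53.8% called, beside 38.6% of all genes tested), with a median of 0.06. UBE2N rose by 0.63 and UBE2E3 fell by 0.70 on the log2 scale. Of 26 genes that DUX4 or the early embryo switches on, 18 were in the table and 3 were tested. Of these 3, 1 was called (33.3%, beside 38.6% of all genes tested). RFPL2 rose (8.30 CPM with palbociclib and 4.55 CPM in controls, log2 fold change 0.87, edgeR adjusted p = 0.00756), and MBD3L2 (1.21, 0.195) and PRAMEF12 (-0.13, 0.900) did not pass. DUX4 had at most 1 count and ZSCAN4 at most 24 counts in any library.

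Prostate markers were high in both groups. KLK3, which encodes prostate-specific antigen, averaged 2592 CPM with palbociclib and 1304 CPM in controls, and the luminal keratin KRT18 averaged 383.7 CPM with palbociclib and 385.0 CPM in controls. Of 9 germ cell markers 3 were in the table, and their sum was 0.464 to 1.11 CPM in palbociclib libraries and 0.558 to 0.957 CPM in control libraries. SYCP3 was the germ cell marker that could be tested, and it did not pass (-0.08, edgeR adjusted p = 0.930). The sum over leukocyte markers was 5.91 to 8.34 CPM in palbociclib libraries and 4.00 to 5.79 CPM in control libraries. CD68 averaged 6.12 CPM with palbociclib and 2.40 CPM in controls, and PTPRC averaged 0.470 CPM with palbociclib and 1.19 CPM in controls. The sum over fibroblast markers was 31.4 to 34.0 CPM in palbociclib libraries and 29.2 to 30.1 CPM in control libraries. Totals ran from 59183323 to 76211410 estimated counts in palbociclib libraries and from 57082715 to 78117945 in control libraries. On the second principal component control libraries 2 and 3 lay at opposite ends (-45.9 and 65.2), with every palbociclib library between them.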

How the data were processed

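The deposited tables hold estimated counts and FPKM values per gene that the authors made with StringTie, per the series' design text. Per the submitters' processing notes the tools were cutadapt 1.9, HISAT2 2.0.4 on hg38, StringTie 1.3.4d and edgeR; the design text names fastp for trimming. Whether counting kept strand, how reads with several alignments were divided, and the annotation release are not given in the sources used here. Estimated counts were deposited as whole numbers, and about 4 counts stand for a fragment; floors (12 counts per library, 0.154 to 0.210 CPM) cover counting error only. Within each group, every pair of libraries varied beyond counting error (chi-square over its degrees of freedom 3.45 to 6.25, on counts divided by 4).

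Members were rows whose name matched TRIM, a number and at most a letter and a digit (68 rows), less TRIM80P. They and all lists were chosen with earlier results of these data known. Counts were filtered with filterByExpr (minimum count 10, total 15), scaled by TMM and fitted in edgeR 4.0.16 (R 4.3.3) by the quasi-likelihood F-test, without a replicate block, with Benjamini-Hochberg adjustment over all genes. The SE is the absolute log2 fold change over the square root of F. On simulated counts with 200 genes changed 2-fold, the fit recovered 79.5%, with 12 false calls. The changed genes all lay above 1 CPM. Smaller changes, or as large a share of changed genes as was called here, were not simulated. Alternatives used limma 3.58.1 and DESeq2 1.42.0. Named were all TRIM49 copies and relatives, members past 0.05 with at least a 2-fold change, the 10 lowest adjusted p in each direction at 1 CPM or more without overlap, up to 4 per list, and the 5 highest in FPKM. Shared sequence was counted as stretches of 100 bases in GENCODE 44 transcripts. Coordinates are those of the deposited table; for 50 of 67 members they equal GENCODE 44. Gene bodies were aligned with blastn 2.17.0 and coding sequences with Biopython 1.88. Exon overlaps are with listed genes of 60 or more counts. Results for 1 marker gene, and for the lists that rest on it, are not reported here.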

Additional observations from a re-analysis of the deposited data

How the results depend on the processing

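The log2 fold change of the 5 summed TRIM49 copies, 3.14, moved to 3.03 with library size alone, 2.85 on log2(FPKM + 1) and 3.03 on log2(FPKM + 0.1), and stayed between 3.12 and 3.17 when each library was left out. It moved by less than the spread between libraries with RLE factors, DESeq2, no filter and counts divided by 4. The sum of TRIM49D1 and TRIM49D2 ran from 2.89 to 3.22. TRIM49C ran from 0.17 on log2(FPKM + 1) to 2.69 without control library 3, with 1.49 without control library 1, and TRIM49 from 0.16 to 1.09.

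Outside the copies, 6 to 10 members were higher and 11 to 18 lower over the alternative fits, against 10 and 15. The members tested, copies included, differed between fits, from 47 with counts divided by 4 to 67 with no filter, against 53. Leaving out members with overlapping exons left 8 lower members, since fewer were counted. Of the 25 that passed, 9 lost the call under at least 1 alternative (TRIM7, TRIM8, TRIM13, TRIM21, TRIM27, TRIM33, TRIM39, TRIM46 and TRIM62). Of the members that had not passed, 7 gained a call under at least 1 alternative (TRIM9, TRIM15, TRIM28, TRIM35, TRIM37, TRIM41 and TRIM71). TRIM15 passed the count filter and the test only when control library 3, with 0 counts, was left out. That call rests on 14 and 16 counts in control libraries 1 and 2, and so on few fragments. The filter kept TRIM15 there, and TRIM9, through control libraries, so the calls gained by TRIM9 and TRIM15 are a description only. Among the named members, signs turned in 5 that passed under no setting, and the cause was not tested. With library size alone the log2 fold change was -0.016 for TRIM23, -0.058 for TRIM26, -0.013 for TRIM52 and -0.080 for TRIM54. On log2(FPKM + 1) it was -0.0095 for TRIM23, -0.055 for TRIM26, -0.010 for TRIM52 and -0.030 for TRIM54. On log2(FPKM + 0.1) it was -0.0106 for TRIM23, -0.0578 for TRIM26, -0.0113 for TRIM52 and -0.078 for TRIM54. With 1 library left out TRIM26 ran from -0.0065 to 0.12, TRIM54 from -0.15 to 0.19, and TRIM69 from -0.070 to 0.073.

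With the replicate number as a block the summed copies stood at 3.14 and 9 members outside the copies were higher and 15 lower, with TRIM62 the call that changed. Equal numbers are not said to share a culture. Deviations of same-numbered libraries correlated at -0.00794, -0.0341 and -0.0311, and those of other-numbered libraries at -0.017 to 0.0474. With 3 libraries per group these values cannot show whether libraries were paired, and the main fit used no block. About 4 counts stand for a fragment, which limits members under 50 counts most.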
